A study of Mus musculus with 24 samples.

Results

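The lysosome and autophagy genes described here are 37 mouse genes chosen by name: 12 lysosomal hydrolases and their cofactors, 5 lysosomal membrane proteins and regulators, 8 parts of the vacuolar proton pump and 12 autophagy genes. They were found among the array's probes by gene symbol, ignoring case and accepting older aliases. Of the 37, 36 had a probe and 34 passed the filter on dim probes, among 13108 genes tested.

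RNA of the mouse embryo fibroblast line BALB/3T3 (clone A31, from the BALB/c strain) was measured on 24 Illumina bead arrays. The 4 groups of 6 arrays were a control without metal, pure iron powder at 3.25 mg/ml, pure manganese powder at 0.5 mg/ml and 5 mg/ml of powder of Fe-35Mn, an alloy of both metals. All cells were cultured for 24 h in the same serum-containing medium with antibiotics, and the powders lay in culture inserts above the monolayer. The doses differ between the metals, so a difference between 2 metals is one between these exposures. The line is 1 clone, and the titles call the 6 replicates technical, so the p-values given cover variation among these arrays, perhaps technical variation only. In bulk RNA, fewer cells of a type and less RNA per cell cannot be told apart.

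Lysosomes are acidic compartments in which hydrolases break down protein, lipid and sugar polymers delivered by endocytosis or by autophagy. The vacuolar ATPase pumps protons into them: its V1 sector in the cytosol splits ATP, and its V0 sector in the membrane carries the protons. In autophagy a double membrane closes around cytoplasm. Ubiquitin-like proteins of the LC3 and GABARAP families are attached to that membrane, receptors such as the product of Sqstm1 (p62) bind cargo to them, and the vesicle fuses with a lysosome. In mammals TFEB and its relatives bind CACGTG-type elements near many lysosomal genes, NRF2 binds antioxidant response elements near Sqstm1 and other stress genes, and ATF4 and CHOP bind elements near several autophagy genes.

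A 300-base promoter window, 250 bases before the start site and 50 from it, was available in the RefSeq sequences of build GRCm38.p6 for 30 of the 37 members. The windows were searched on both strands for CACGTG, the core of the TFEB-type element. They were also searched for TCACGTGA (a longer form that contains CACGTG), for TGACNNNGC (the antioxidant response core) and for TGATGNAA (a CHOP and ATF4 composite form). CACGTG occurred in the window of 12 of the 30 members (40.0%), against 8.09% of 27025 genes with a window and 9.51% of the 16169 that also had a probe. Among 97 other lysosome and autophagy genes its share was 20.6%. TCACGTGA occurred in 6 of 30 (20.0%), against 1.12% of all genes with a window, 1.56% of those with a probe and 6.19% of the 97. TGACNNNGC was found in 6 of 30 (20.0%), against 14.0%, 15.3% and 17.5% of these sets in the same order. TGATGNAA was found in 2 of 30 (6.67%), against 4.51%, 3.72% and 4.12%. By role, CACGTG was present for 6 of 11 hydrolases and cofactors, 2 of 5 membrane proteins and regulators, 2 of 5 pump genes and 2 of 9 autophagy genes.

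Windows are printed for 6 members, 5 of them with a CACGTG match and with different changes in expression, and Sqstm1, the member with the largest change, whose window held none of the motifs searched. Lamp1 lies on chr8:13158911-13159210 (plus strand) and Mcoln1 on chr8:3500269-3500568 (plus strand). The window of Gla is chrX:134600956-134601255, that of Atp6v1a chr16:44139210-44139509, that of Ctsl chr13:64370471-64370770 and that of Sqstm1 chr11:50210771-50211070, all on the minus strand. Sequences run 5′ to 3′ along the gene, and capitals mark matches to CACGTG, TGACNNNGC or TGATGNAA.
Lamp1: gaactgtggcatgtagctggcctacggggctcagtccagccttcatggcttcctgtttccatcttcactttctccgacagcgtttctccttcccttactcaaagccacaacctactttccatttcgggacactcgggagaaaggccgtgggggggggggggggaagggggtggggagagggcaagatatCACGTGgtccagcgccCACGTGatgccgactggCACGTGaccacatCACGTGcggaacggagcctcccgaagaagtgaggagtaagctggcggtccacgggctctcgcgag
Mcoln1: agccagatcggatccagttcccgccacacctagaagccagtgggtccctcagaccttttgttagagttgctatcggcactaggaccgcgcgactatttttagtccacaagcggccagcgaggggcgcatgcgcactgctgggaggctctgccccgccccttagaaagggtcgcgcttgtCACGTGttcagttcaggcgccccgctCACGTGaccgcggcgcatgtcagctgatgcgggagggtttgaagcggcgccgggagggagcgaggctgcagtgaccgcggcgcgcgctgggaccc
Gla: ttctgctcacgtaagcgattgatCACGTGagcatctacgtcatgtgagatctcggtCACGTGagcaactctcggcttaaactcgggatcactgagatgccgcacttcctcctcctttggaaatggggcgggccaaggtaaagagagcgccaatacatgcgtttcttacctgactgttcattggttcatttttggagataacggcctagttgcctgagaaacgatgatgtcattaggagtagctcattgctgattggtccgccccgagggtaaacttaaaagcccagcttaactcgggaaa
Atp6v1a: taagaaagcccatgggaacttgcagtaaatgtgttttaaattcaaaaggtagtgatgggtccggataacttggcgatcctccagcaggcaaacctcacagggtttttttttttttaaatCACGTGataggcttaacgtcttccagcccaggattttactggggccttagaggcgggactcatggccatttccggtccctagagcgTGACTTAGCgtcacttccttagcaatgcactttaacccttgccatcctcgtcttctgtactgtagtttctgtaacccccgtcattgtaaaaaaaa
Ctsl: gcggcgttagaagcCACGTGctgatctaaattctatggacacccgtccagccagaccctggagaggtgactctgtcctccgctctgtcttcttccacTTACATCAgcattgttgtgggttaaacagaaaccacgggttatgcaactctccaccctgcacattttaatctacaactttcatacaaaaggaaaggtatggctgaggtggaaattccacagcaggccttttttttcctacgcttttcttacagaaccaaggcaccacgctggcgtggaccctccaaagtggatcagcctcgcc
Sqstm1: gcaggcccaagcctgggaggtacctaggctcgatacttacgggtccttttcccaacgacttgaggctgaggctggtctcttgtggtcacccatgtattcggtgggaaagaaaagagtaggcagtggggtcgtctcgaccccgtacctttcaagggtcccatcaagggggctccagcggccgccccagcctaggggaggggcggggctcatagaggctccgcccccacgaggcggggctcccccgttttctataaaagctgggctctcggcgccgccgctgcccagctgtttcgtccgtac
Lamp1 had 4 CACGTG matches, beginning 61, 45, 28 and 15 bases before the start site, the most of any member. Gla had 2, each inside TCACGTGA, and Mcoln1 had 2, of which the match beginning 45 bases before the start site lay inside TCACGTGA. Atp6v1a had 1 CACGTG match, inside TCACGTGA, and 1 TGACNNNGC match. Ctsl had 1 CACGTG and 1 TGATGNAA match, the latter read on the opposite strand. Among the 12 tested members with CACGTG in the window, 7 were higher and 4 lower with manganese (median log2 change 0.15). Among the 15 tested members with a window but no CACGTG, 8 were higher and 3 lower (median 0.14). With the alloy 6 were higher and 1 lower in each of these sets, and the medians were 0.26 and 0.16. Shares of all genes were 29.8% higher and 31.6% lower with manganese, and 23.5% and 26.1% with the alloy. A match describes the letters in the window and says nothing of binding.

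Median probe intensity was 61.6 to 75.3 per array, and 36.9% to 43.4% of probes lay above background. Both low ends were of alloy replicate 4. The next lowest arrays were at 68.8 (alloy replicate 1) and 39.3% (manganese replicate 1). The first principal component of all genes held 75.8% of the variance. Manganese arrays scored 22.2 to 26.6 on it and the alloy arrays 9.46 to 48.4, in the order 39.2, 18.9, 48.4, 27.2, 9.46 and 17.7 for replicates 1 to 6. All 10 fibroblast markers were above background on every array, while Ptprc, Adgre1, Itgam, Tyrobp and Fcer1g of the macrophage list, Pecam1, Kdr, Epcam and Krt18 were above background on none. Of the other markers of these cell types, Cd14 and Krt8 were above background on all 24 arrays, Cdh1 on 21, Lyz2 on 12, Cdh5 and Tek on 7 each and Csf1r on 1. With manganese Cd14 rose by 0.39 and Tek by 0.28 and Lyz2 fell by 0.44, with alloy values of 0.32, 0.31 and -0.57 that also passed, while Krt8, Cdh1 and Cdh5 did not pass with any metal; the part of these genes in the results was not tested. Summed deposited intensity of the fibroblast markers was 34934 to 42398 in controls, 24866 to 26077 with manganese and 18625 to 29020 with the alloy, and its part in the results was not tested.

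With iron powder, no lysosome or autophagy gene passed the test. A gene was called when its adjusted p was under 0.05 in a limma fit of the 12 arrays compared, with Benjamini-Hochberg adjustment over all 13108 genes. By this rule 0 of the 34 members were called with iron, where 2.28% of all genes were. Of them 3 had an unadjusted p under 0.05. Mcoln1, the TRPML1 calcium channel of the lysosome, had the largest difference, 0.15 on the log2 scale (SE 0.0447, adjusted p = 0.0847), and Atp6v1a the lowest, -0.12. The 95% intervals of all 34 members lay between -0.25 and 0.25, so changes larger than that in either direction lay outside every interval.

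Of the 34 members, 82.4% were called with manganese and 58.8% with the alloy, the latter near the 49.5% of all genes. With manganese 19 of 34 rose and 9 fell, where 61.4% of all genes were called (29.8% higher, 31.6% lower). With the alloy 16 rose and 4 fell, where 49.5% of all genes were called (23.5% higher, 26.1% lower). One of the 16, Gabarapl2, reached the filter through the alloy arrays, and with the filter at 12 arrays, which it did not pass, 15 of 33 rose and 4 fell, where 51.9% of all genes were called. The median log2 change of the 34 was 0.15 with manganese and 0.21 with the alloy, and that of all genes was 0.00 and -0.01, which quantile normalisation holds near 0. The manganese median was 0.08 with median scaling and 0.07 without normalisation between arrays, where that of all genes was -0.04 and -0.05. The alloy median was 0.14 with median scaling and 0.10 without normalisation, where that of all genes was -0.08 and -0.13. It was 0.10 with array weights and 0.14 without alloy replicate 3, where that of all genes stayed at -0.01. The split with the alloy moved with the scaling, for the members and for all genes. With median scaling 8 members rose and 5 fell, where 39.8% of all genes were called (1487 higher, 3731 lower). Without normalisation between arrays 5 members rose and 5 fell, where 36.3% of all genes were called (1048 higher, 3708 lower). For a number of members no array of the metal group overlapped the controls, 13 higher and 7 lower with manganese (20.8% and 21.7% of all genes) and 10 higher and 1 lower with the alloy (15.3% and 17.8%). Both sets of changes are against the same 6 controls. Beside them, 10 of 10 fibroblast markers fell with manganese and 8 of 10 with the alloy (Pdgfra by 1.44 and 1.13 on the log2 scale), and their part was not tested.

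**Figure D1:**
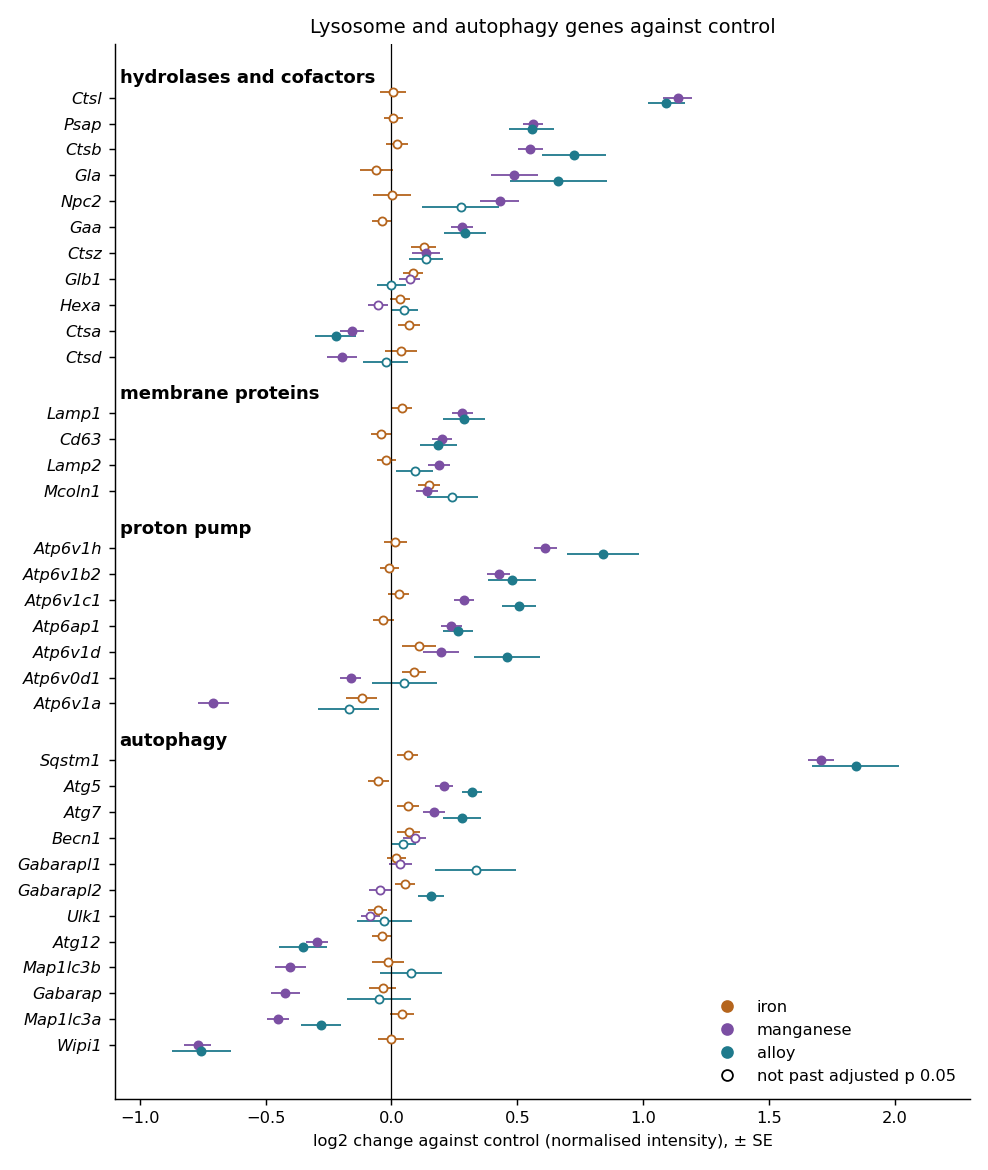
Log2 change against control of the 34 tested members, grouped by role and ordered by the change with manganese. Points are iron (brown), manganese (purple) and alloy (teal) with bars of 1 SE (6 arrays per group), and open points did not pass an adjusted p of 0.05; all iron points are open, and Sqstm1 lies farthest to the right at 1.71 and 1.84.

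Among the hydrolases, the cysteine proteases cathepsin L and B and the saposin precursor rose, while cathepsins A and D did not rise with either metal. With manganese 7 of 11 tested members of this group rose and 2 fell (median 0.28), where 29.8% of all genes rose and 31.6% fell. The alloy gave 5 higher and 1 lower (median 0.28), where 23.5% of all genes were higher and 26.1% lower. The share of the 11 called with the alloy, 54.5%, was near the 49.5% of all genes.

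Ctsl encodes cathepsin L, an endopeptidase of the lysosome. Its log2 level was 7.15 to 7.48 in controls (median 7.39), 7.29 to 7.50 with iron (7.35) and 8.39 to 8.68 with manganese (8.49). On the alloy arrays it was 8.45, 8.33, 8.59, 8.53, 8.25 and 8.60 for replicates 1 to 6. Every manganese and alloy array lay above every control and iron array, and no alloy array stood apart. The change was 2.20-fold with manganese (log2 1.14, SE 0.0576, adjusted p = 8.26e-13) and 2.13-fold with the alloy (log2 1.09, SE 0.0739, adjusted p = 5.92e-08). In the authors' normalized probe table the change was smaller, 0.31 and 0.29, and still passed.

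Ctsb encodes cathepsin B, a cysteine protease that cuts both within and at the ends of proteins. Control levels ran from 12.08 to 12.27 (median 12.11), iron levels from 12.08 to 12.25 (12.16) and manganese levels from 12.61 to 12.88 (12.66). The alloy arrays read 13.21, 12.72, 13.35, 12.81, 12.42 and 12.70. Replicates 1 and 3 were above all manganese arrays and replicate 5 below all of them, and all 6 were above the controls. The rise was 0.55 with manganese (SE 0.0492, adjusted p = 5.42e-09) and 0.73 with the alloy (SE 0.128, adjusted p = 0.000309). It was 0.47 without alloy replicates 1, 3 and 4. These arrays had the highest alloy scores on the first component, which separates manganese and alloy arrays from controls, so values without them, here and for other genes, are a description with no test, and a smaller change follows in part from the choice.

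Gla encodes alpha-galactosidase A, the enzyme missing in Fabry disease. It was dim: controls lay at 6.70 to 7.06 (median 6.88), iron arrays at 6.62 to 6.99 (6.85) and manganese arrays at 7.02 to 7.81 (7.33). Alloy replicates 1 to 6 read 7.69, 7.33, 8.25, 7.54, 6.64 and 7.75. Replicate 5 was below every control array and the other 5 were above them, so the alloy and control groups overlapped, as did manganese and control. Gla rose by 0.49 with manganese (SE 0.0940, adjusted p = 0.000137) and by 0.66 with the alloy (SE 0.193, adjusted p = 0.0105). The alloy call was lost without normalisation between arrays (0.50, adjusted p = 0.0568). Without alloy replicates 1, 3 and 4 the alloy value was 0.37.

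Psap, the precursor of the saposins that present lipids to their hydrolases, rose by 0.56 with each of manganese and the alloy. Both groups lay wholly above the controls after normalisation. Gaa, acid alpha-glucosidase of glycogen breakdown, rose by 0.28 and 0.29. Npc2, which carries cholesterol out of the lysosome together with NPC1, rose with manganese (0.43, SE 0.0775, adjusted p = 6.75e-05). With the alloy Npc2 had a mean difference of 0.28 and did not pass (adjusted p = 0.153), since its arrays ran from 10.05 to 11.03 with replicates 1 and 3 at 10.67 and 11.03. Ctsa, the protective protein of beta-galactosidase and neuraminidase, fell by 0.16 and 0.22, and Ctsd, an aspartic protease, fell with manganese by 0.20 (-0.02 with the alloy, not past). The alloy call for Ctsa was kept in 15 of 27 alternatives and was lost without alloy replicate 2, 5 or 6 or any 1 of control replicates 1 to 5. Ctsz, an exopeptidase, rose with manganese by 0.14, a call kept in 12 of 26 alternatives and lost without manganese replicate 1 or 2 or control replicate 3, 4, 5 or 6. Glb1 and Hexa, which trim galactose and hexosamine from glycolipids, did not pass with any metal; their 95% intervals with manganese were -0.01 to 0.16 and -0.13 to 0.03. Ctsc was not above background on any array, with levels of 5.85 to 6.26 over all groups.

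The lysosomal membrane proteins moved by small amounts. All 4 tested members rose with manganese (median 0.19) and 2 rose with the alloy (median 0.21). Of all genes, 29.8% rose with manganese and 23.5% with the alloy. The share of the 4 called with the alloy, 50%, was near the 49.5% of all genes. Lamp1, the main glycoprotein of the lysosomal membrane, rose by 0.28 with manganese (SE 0.0424, adjusted p = 8.06e-06) and by 0.29 with the alloy (SE 0.0837, adjusted p = 0.0103). Alloy replicates 1 to 6 of Lamp1 read 13.32, 13.12, 13.55, 13.09, 12.94 and 13.21 against controls of 12.82 to 12.96. Replicate 5 lay within the controls and the other 5 above them. Cd63, a tetraspanin of late endosomes and lysosomes, rose by 0.20 and 0.19, and the alloy call was kept in 10 of 27 alternatives and was lost without alloy replicate 1, 2 or 3 or any 1 control. Lamp2, a second such glycoprotein, rose by 0.19 with manganese and Mcoln1 by 0.14, and their alloy values of 0.09 and 0.24 did not pass. The manganese call for Mcoln1 was lost with median scaling (0.05, adjusted p = 0.430), without normalisation (0.04, adjusted p = 0.595) and in the model of all 24 arrays. The 6 manganese arrays of Lamp2 were all above the controls. Tfeb, listed on the array under its older symbol, was not above background on any array (levels 6.07 to 6.44). Its relative Tfe3, which was named after its values were seen, rose by 0.17 with manganese (adjusted p = 0.00537) and 0.28 with the alloy (adjusted p = 0.00442).

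The proton pump moved in both directions with manganese. Its subunits H, B2, C1 and D and the accessory protein Atp6ap1 rose, while the catalytic subunit A and the V0 subunit d1 fell. Thus 5 of 7 rose and 2 fell, where 29.8% of all genes rose and 31.6% fell. With the alloy 5 passed as higher, namely H, B2, C1, D and Atp6ap1, and 0 as lower. The all-gene shares were 23.5% higher and 26.1% lower. The median of the 7 was 0.24 with manganese and 0.46 with the alloy.

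Atp6v1h encodes subunit H of the V1 sector, which couples and regulates it. Controls lay at 11.41 to 11.62 (median 11.57), iron arrays at 11.46 to 11.63 (11.58) and manganese arrays at 12.03 to 12.24 (12.16). The alloy arrays were 12.74, 12.24, 12.81, 12.56, 11.82 and 12.10. All of them lay above the controls, replicates 1, 3 and 4 lay above all manganese arrays and replicate 5 lay below all of them. The rise was 1.53-fold with manganese (log2 0.61, SE 0.0464, adjusted p = 4.62e-10) and 1.79-fold with the alloy (log2 0.84, SE 0.143, adjusted p = 0.000228). Without alloy replicates 1, 3 and 4 it was 0.51.

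Atp6v1a encodes subunit A, which binds the ATP that the pump splits. Its levels were 9.50 to 9.78 in controls (median 9.60), 9.26 to 9.63 with iron (9.55) and 8.72 to 9.04 with manganese (8.94). On the alloy arrays they were 9.57, 9.32, 10.02, 9.43, 9.20 and 9.21. The manganese arrays lay below all other arrays of the 4 groups, whereas alloy replicate 3 was above the controls, replicate 1 among them and the other 4 below them. Atp6v1a fell by 0.71 with manganese (SE 0.0601, adjusted p = 2.66e-09), and its alloy value of -0.17 did not pass (adjusted p = 0.269). Without alloy replicates 1, 3 and 4 the alloy value was -0.38.

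Atp6v1c1, subunit C of the stalk that joins V1 to V0, rose by 0.29 with manganese and 0.51 with the alloy. Atp6v1b2, the B subunit that pairs with A, rose by 0.43 and 0.48, and Atp6ap1, which assists assembly of the pump, by 0.24 and 0.26. For these 3 genes, as for Atp6v1h, neither metal group overlapped the controls after quantile normalisation. As deposited, alloy and control intensities of the 3 overlapped (3365 to 7887 and 3778 to 4715 for Atp6v1b2). Without normalisation the alloy calls for Atp6v1b2 (adjusted p = 0.104) and Atp6v1c1 (adjusted p = 0.0524) were lost. Atp6v1d, of the central rotor, rose by 0.20 and 0.46, and both calls were lost with median scaling and without normalisation. Its manganese call was also lost in the authors' normalized probe and gene tables, in the model of all 24 arrays and without manganese replicate 2 or control replicate 2. Atp6v0d1, the V0 subunit to which the rotor attaches, fell by 0.16 with manganese (SE 0.0427, adjusted p = 0.00262), and the gene's 4 probes ran from -0.34 to -0.16. Its alloy arrays read 11.65, 11.07, 11.86, 11.12, 11.03 and 11.14 against controls of 11.17 to 11.38. Replicates 1 and 3 were above all controls and the other 4 below all of them, and the mean difference of 0.05 did not pass. Atp6v0c, the ring subunit that carries protons, had no probe matched to it and was not analysed here.

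**Figure D2:**
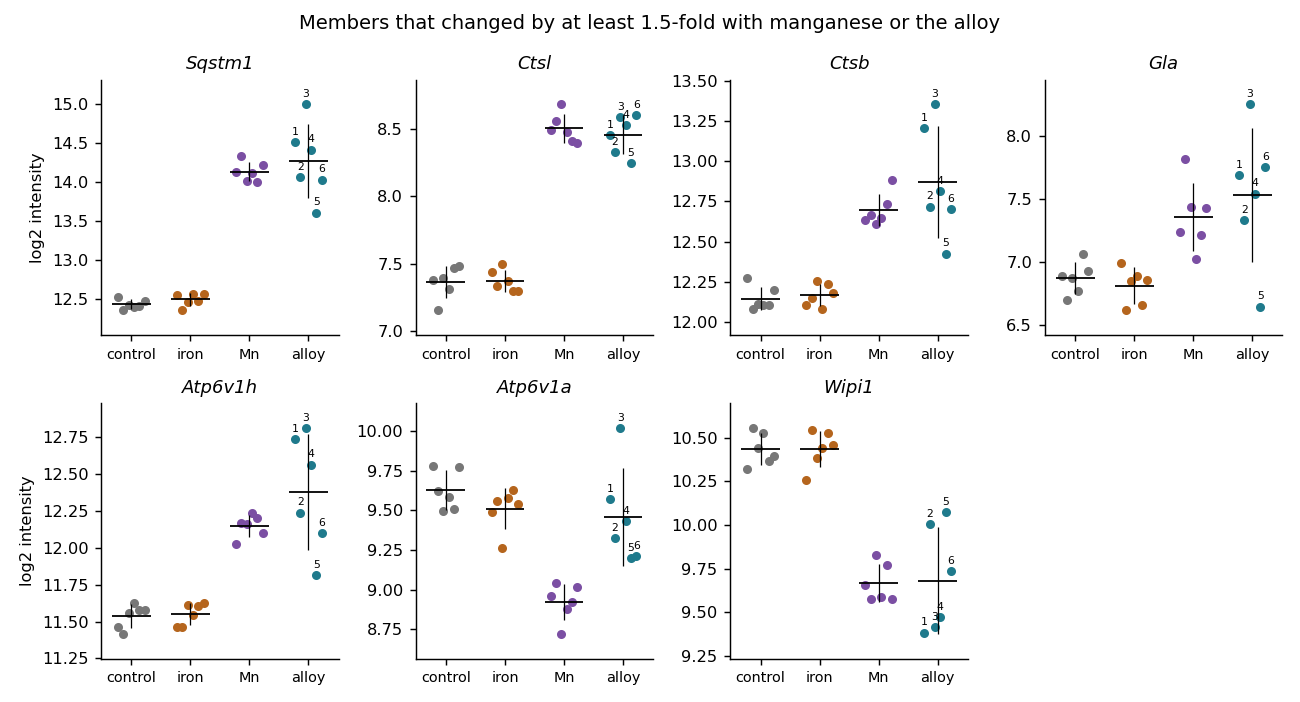
Log2 intensity on each array for the 7 members called with a change of at least 1.5-fold with manganese or the alloy; points are arrays, lines the group mean and SD (6 arrays), and numbers the alloy replicate. Alloy replicate 3 is the highest alloy array for Sqstm1 (15.00), Gla (8.25), Ctsb (13.35), Atp6v1h (12.81) and Atp6v1a (10.02), while the 6 alloy arrays of Ctsl stay between 8.25 and 8.60.

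Autophagy genes moved in both directions, with 3 of 12 higher and 5 lower with manganese (median -0.06) and 4 higher, Gabarapl2 among them, and 3 lower with the alloy (median 0.06). Of all genes, 29.8% were higher and 31.6% lower with manganese and 23.5% and 26.1% with the alloy. The cargo receptor gene Sqstm1 was the member with the largest change in both comparisons. Its log2 level was 12.35 to 12.52 in controls (median 12.42), 12.36 to 12.56 with iron (12.51) and 14.00 to 14.33 with manganese (14.12). The alloy arrays read 14.52, 14.06, 15.00, 14.42, 13.61 and 14.03. Manganese and alloy arrays were all above all control and iron arrays, and the lowest alloy array, replicate 5, was below all manganese arrays. Sqstm1 rose 3.26-fold with manganese (log2 1.71, SE 0.0532, adjusted p = 3.56e-16) and 3.59-fold with the alloy (log2 1.84, SE 0.171, adjusted p = 1.11e-06). As deposited, before any correction, its intensity was 5119 to 6480 in controls and 12775 to 33835 with the alloy.

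Wipi1, which binds the phosphoinositide of the forming autophagosome membrane, fell most. Control levels were 10.32 to 10.55 (median 10.42), iron levels 10.26 to 10.54 (10.45) and manganese levels 9.58 to 9.83 (9.62). The alloy arrays read 9.38, 10.00, 9.41, 9.47, 10.07 and 9.74. All manganese and alloy arrays lay below the controls, and alloy replicates 2 and 5 came nearest to them. The fall was 0.77 with manganese (SE 0.0536, adjusted p = 1.26e-10) and 0.75 with the alloy (SE 0.116, adjusted p = 9.75e-05). Its 3 probes fell by 0.65 to 0.77 with manganese and by 0.54 to 0.75 with the alloy.

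The ubiquitin-like genes did not move as 1 group. With manganese Map1lc3a fell by 0.45 (SE 0.0434, adjusted p = 1.76e-08), Gabarap by 0.42 (SE 0.0578, adjusted p = 2.39e-06) and Map1lc3b by 0.40 (SE 0.0613, adjusted p = 9.14e-06), and no manganese array of these 3 overlapped the controls. Gabarapl1 differed by 0.04 and Gabarapl2 by -0.04, neither past the test. With the alloy Map1lc3a fell by 0.28 (SE 0.0788, adjusted p = 0.00849), while Map1lc3b (0.08), Gabarap (-0.05) and Gabarapl1 (0.33, adjusted p = 0.103) did not pass. Gabarapl2 was above background on 4 alloy, 2 iron, 1 control and 0 manganese arrays, against the minimum of 6 in all. It passed that filter through the alloy arrays, so its alloy difference of 0.16 (adjusted p = 0.0181, kept in 20 of 26 alternatives) is given as a value and supports nothing.

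The mean of Gabarapl1 with the alloy hid a wide spread. Its control levels were 9.75 to 9.85, and its alloy arrays read 10.46, 9.80, 10.72, 10.36, 9.61 and 9.76. Replicates 1, 3 and 4 were above all arrays of the other 3 groups, and replicates 2, 5 and 6 lay at or near the controls. Map1lc3b read 9.29, 8.70, 9.29, 8.86, 8.51 and 8.86 on the alloy arrays against 8.70 to 9.11 in controls. Replicates 1 and 3 were above the controls, 5 was below them and the rest among them.

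**Figure D3:**
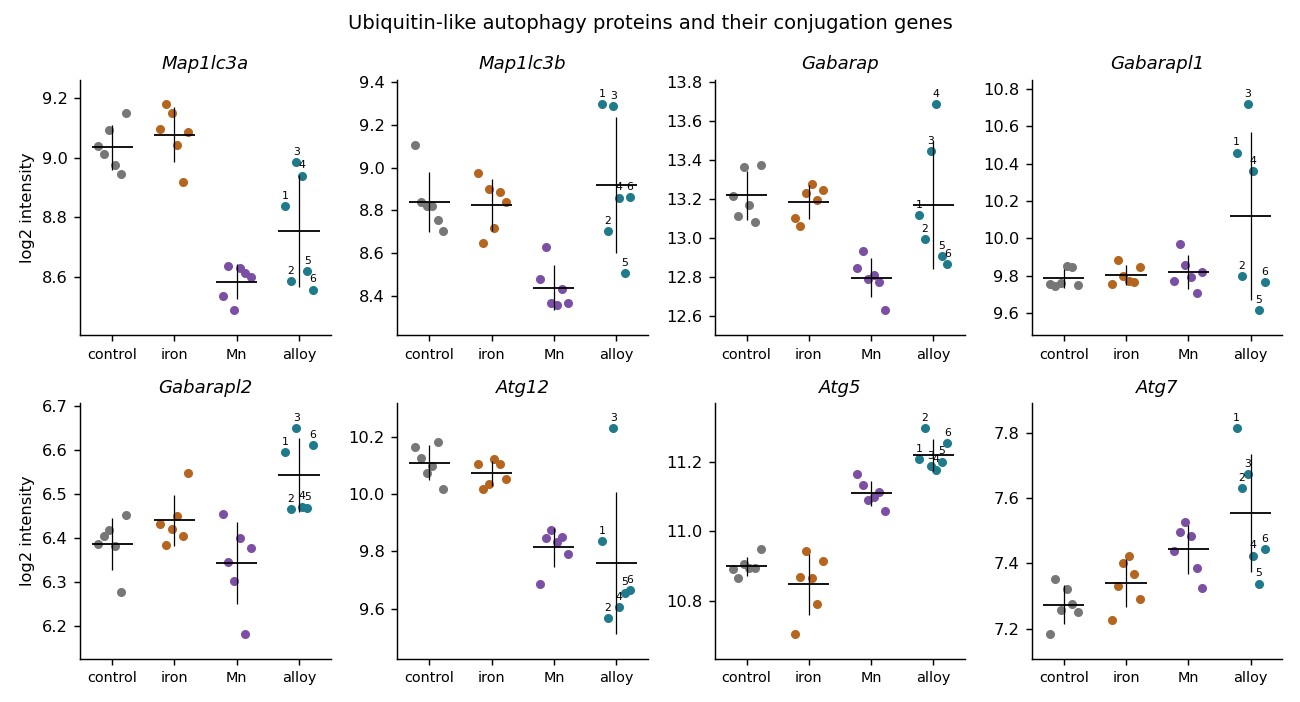
Log2 intensity on each array for the 5 ubiquitin-like LC3 and GABARAP genes, Atg12 and the conjugation genes Atg5 and Atg7; points are arrays, lines the mean and SD of 6, and numbers the alloy replicate. Manganese arrays of Map1lc3a, Map1lc3b and Gabarap sit below the controls, and alloy replicates 1, 3 and 4 of Gabarapl1 sit at 10.36 to 10.72, above all other arrays.

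Of the genes that attach these proteins, Atg5 and Atg7 rose and Atg12 fell. Atg7 encodes the activating enzyme, and Atg12 a further ubiquitin-like protein that is joined to the product of Atg5. Atg5 rose by 0.21 with manganese (SE 0.0356, adjusted p = 3.28e-05) and by 0.32 with the alloy (SE 0.0399, adjusted p = 1.55e-05). Its alloy arrays were closely spaced, at 11.21, 11.30, 11.19, 11.18, 11.20 and 11.25, against controls of 10.87 to 10.95. All 6 lay above the controls and above all manganese arrays, which read 11.06 to 11.17, although the difference between the metals did not pass (adjusted p = 0.154). Atg7 rose by 0.17 and 0.28. The alloy call for Atg5 was lost with median scaling (0.20, adjusted p = 0.174) and without normalisation (0.16, adjusted p = 0.386). The alloy calls for Atg7, Lamp1, Gaa and Atp6ap1 were lost in the same 2 settings, as was the manganese call for Atg7. Atg12 fell by 0.30 with manganese and by 0.35 with the alloy, where replicate 3 (10.23) was above the controls and the other 5 (9.57 to 9.84) below them. The initiating kinase gene Ulk1 (-0.08 with manganese, -0.03 with the alloy) and Becn1 of the phosphoinositide kinase complex (0.09 and 0.05) did not pass. With median scaling Ulk1 passed as lower with both metals (-0.13 and -0.18).

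The members, like all genes, varied more between alloy arrays than between arrays of any other group. Their median SD was 0.222 in the alloy group, against 0.0647 in controls, 0.0765 with iron and 0.0816 with manganese. Over all genes it was 0.147 with the alloy, against 0.0761, 0.0765 and 0.0834 in the same order. For 31 of 34 members the alloy group had the largest SD of the 4. Alloy replicate 3 was the highest of the 6 for 20 members and replicate 5 the lowest for 19. Such counts were not made over all genes. These arrays also had the highest and lowest alloy scores of all genes on the first component (48.4 and 9.46). The median difference of the 34 members from their control means was 0.35, 0.06, 0.46, 0.18, -0.01 and 0.11 on alloy replicates 1 to 6, against 0.09 to 0.20 on the manganese arrays. The alloy arrays thus ranged from no median shift to one above all manganese arrays. Pump genes had medians of 0.51, 0.33, 0.74, 0.49, 0.12 and 0.26, and hydrolases of 0.41, 0.20, 0.58, 0.13, 0.02 and 0.12.

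Without alloy replicates 1, 3 and 4 the median of the 34 members with the alloy was 0.06. Gabarap was then at -0.30 and Atp6v0d1 at -0.18. As the arrays were left out for their position along the response, this describes the other 3 arrays and tests nothing.

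**Figure D4:**
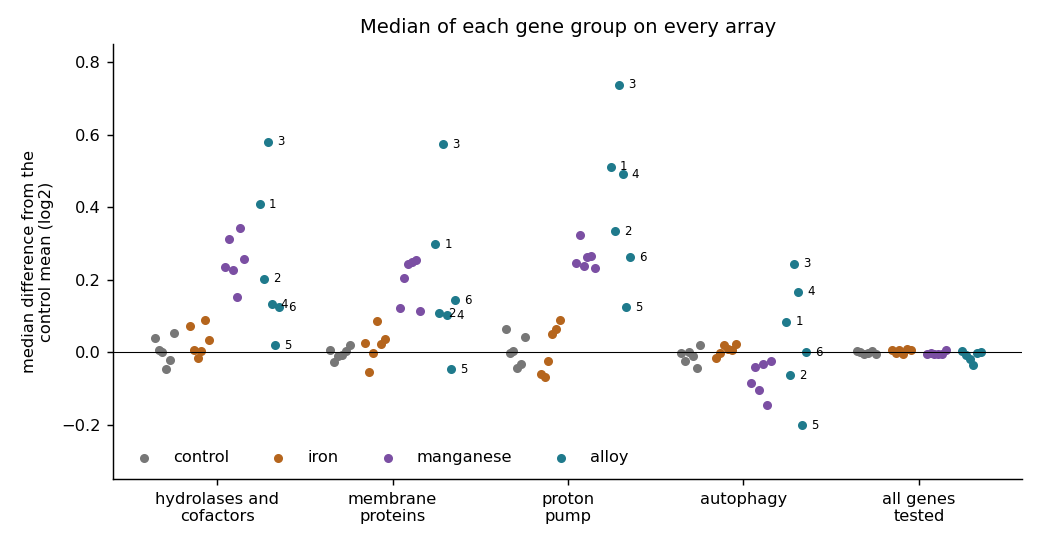
Median difference from the control mean (log2) on each array for the members of each role and for all genes tested; points are arrays, coloured by group, and numbers the alloy replicate. Pump genes on the alloy arrays run from 0.12 (replicate 5) to 0.74 (replicate 3), the manganese arrays stay within 0.23 to 0.32, and all-gene medians stay near 0, where quantile normalisation holds them.

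Alloy and manganese, compared directly on 12 arrays, differed for 2 of 34 members, where 4.15% of all genes were called (1.9% higher with the alloy). Leaving out 1 array moved that share between 1.3% (without manganese replicate 4) and 6.55% (without alloy replicate 5). Atp6v1a was higher with the alloy by 0.54 (SE 0.120, adjusted p = 0.0257), and no alloy array overlapped the manganese arrays. Map1lc3b was higher by 0.48 (SE 0.121, adjusted p = 0.0411), and its groups overlapped. Both calls were lost with median scaling, without normalisation and in the authors' normalized probe table. They were also lost with the replicate number as a block and without alloy replicate 1. The call for Atp6v1a was also lost without manganese replicate 3, 4, 5 or 6, and that for Map1lc3b without alloy replicate 4 or 6 or any 1 manganese array. In the authors' normalized gene table and without the filter the call for Map1lc3b was lost too. For Sqstm1 the difference was 0.14 with a 95% interval of -0.24 to 0.51, and for Ctsl -0.05 with one of -0.20 to 0.11. Over the 34 members the ends of these intervals ran from -0.48 to 0.79.

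Against the iron arrays 15 members were higher and 4 lower with the alloy, where 49.5% of all genes were called (23.3% higher, 26.3% lower). With manganese against iron 15 were higher and 9 lower, where 60.9% of all genes were called (29.5% higher, 31.3% lower). Sqstm1 was higher by 1.78 with the alloy and by 1.64 with manganese, and Wipi1 was lower, at -0.75 and -0.77. These comparisons share arrays with those above.

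Of other lysosome and autophagy genes, 99 were tested. With manganese 36 rose and 33 fell, and with the alloy 30 rose and 28 fell, while none passed with iron. Of all genes, 31.6% fell and 29.8% rose with manganese, and 26.1% fell and 23.5% rose with the alloy. Of 29 other hydrolases 12 fell and 6 rose with manganese, and 12 fell and 4 rose with the alloy. Among them were Smpd1 (acid sphingomyelinase, -0.49 and -0.54), Gusb (beta-glucuronidase, -0.49 and -0.49), Naglu (of heparan sulphate breakdown, -0.48 and -0.53), Arsa (arylsulphatase A, -0.55 and -0.37) and the acid lipase gene Lipa (-0.61 and -0.35).

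Of 17 other membrane and sorting genes, 10 rose and 3 fell with manganese and 9 rose and 2 fell with the alloy. The all-gene shares were 29.8% higher and 31.6% lower with manganese, and 23.5% and 26.1% with the alloy. Npc1, the membrane partner of Npc2 in cholesterol export, rose by 0.88 with manganese (SE 0.0479, adjusted p = 2.53e-12) and by 1.04 with the alloy (SE 0.178, adjusted p = 0.000239). Ostm1, which supports the lysosomal chloride exchanger, rose by 0.66 and 0.68, and Scarb2, the receptor that delivers glucocerebrosidase, rose by 0.41 with manganese. Sort1, a sorting receptor, fell by 1.15 and 1.17.

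Among 11 other pump genes, 6 rose and 2 fell with manganese and 5 rose and 3 fell with the alloy. Shares of all genes were 29.8% higher and 31.6% lower with manganese, and 23.5% and 26.1% with the alloy. In the pump, the V0 subunit a genes moved apart: Atp6v0a1 fell by 0.76 and 0.55 and Atp6v0a2 by 0.27 and 0.46. Tcirg1, which encodes a further a subunit, rose by 0.53 with manganese. Of 30 other autophagy genes, 10 rose and 12 fell with manganese and 9 rose and 8 fell with the alloy. Atg16l1, the partner of ATG12 and ATG5, rose by 0.87 and 0.85, and the LC3-processing protease gene Atg4d by 0.65 and 0.69. Ulk2 fell by 0.57 and 0.72 and the mitophagy receptor gene Fundc1 by 0.61 and 0.55. Of 12 other regulators, 4 rose and 4 fell with manganese and 3 rose and 3 fell with the alloy; Flcn, a regulator of Rag GTPases, rose by 0.29 and 0.48, and Lamtor4, of the complex that holds them at the lysosome, fell by 0.38 and 0.29.

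**Figure D5:**
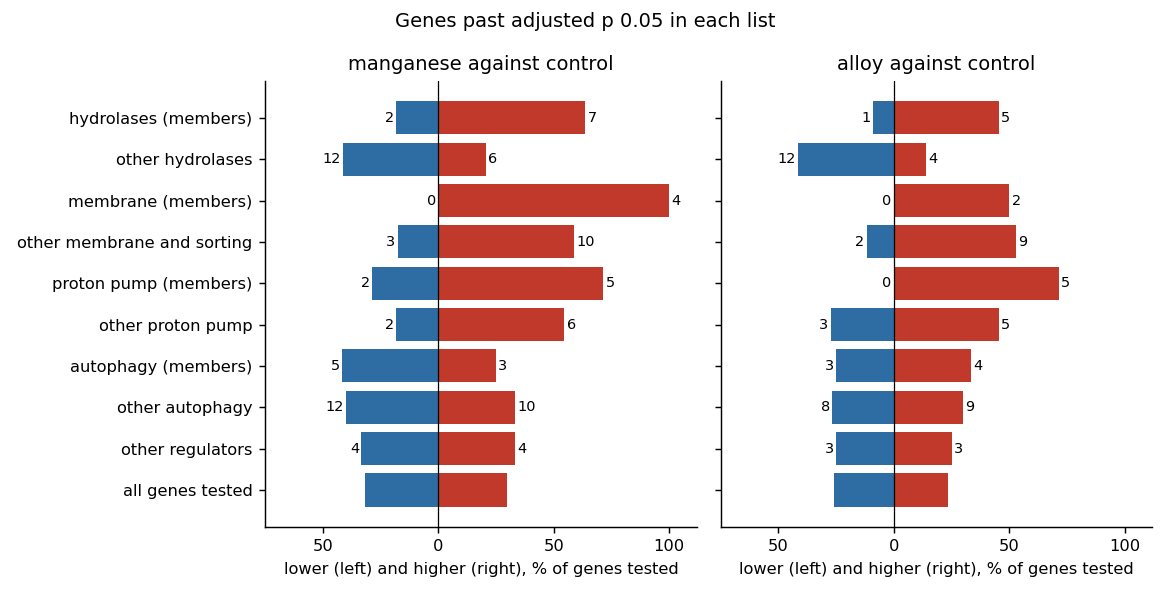
Share of tested genes past an adjusted p of 0.05 in each list, lower to the left (blue) and higher to the right (red), in percent of the genes tested, for manganese and the alloy against control; numbers at the bars count genes. Pump members reach 71.4% higher in both panels, against 29.8% and 23.5% of all genes. The other hydrolases have 12 lower genes in each panel, against 6 and 4 higher.

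Several probes were kept for 14 of the 34 members. All probes of a gene had the same sign for 12 of the 14 with manganese and for 11 with the alloy. The exceptions were Becn1 and Ctsa with manganese and Atp6v0d1, Ctsa and Lamp2 with the alloy. A dim second probe of Atp6v1h, listed under a clone name, differed by 0.02 and 0.04, unlike the bright probe used. Across the 27 alternatives tried, 8 of the 20 alloy calls were kept in all: Ctsb, Ctsl, Psap, Atp6v1h, Sqstm1, Map1lc3a, Wipi1 and Atg12. With manganese 23 of 28 calls were kept in all 26.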

How the data were processed

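Total RNA was labelled as biotin cRNA and hybridised to Illumina mouse bead arrays, per the labels' protocols. The deposited table of non-normalized probes gives a linear intensity for each of 45281 probes, per the file headers. The matching deposited table of genes gives an intensity for each symbol, checked to be the mean of the probes for 30760 of 30760 symbols within 0.1%. The authors' normalized probe and gene tables hold log2 values, per the file headers. The tools lumi and RMA appear in the submitters' processing notes without version or role. Array columns were matched to samples by the tables' header lines.

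Starting from the non-normalized probe intensities of all 24 arrays, values were made with limma 3.58.1 in R 4.3.3 (normexp background correction with an offset of 50, then quantile normalisation). Matplotlib 3.10.9, pandas 2.3.3, NumPy 2.4.6 and SciPy 1.17.1 on Python 3.11.15 were used for matching, sequences and plots. The headers mention detection p-values, but the tables used here hold none, so a probe counted as above background when its log2 intensity exceeded the array's mode plus the normal quantile that leaves 1%, scaled by the spread on the low side. A minimum of 6 such arrays out of 24 left 20199 probes, and the brightest per gene gave 13108 genes. The number of arrays limits the precision.

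Each comparison was fitted to its 12 arrays alone (lmFit and eBayes, two-sided), without covariates, since the alloy arrays spread more widely than the others, and p-values were adjusted by Benjamini-Hochberg over all genes, with calls at 0.05. The steps were tested on simulated data. The members and lists were chosen with earlier results of these data known. Values by array are given for members called with a change of at least 1.5-fold with manganese or the alloy, and for others where the alloy arrays disagreed, chosen after their values were seen. In each other list at most the 4 largest changes per comparison among called genes without overlap are named, besides partners of members. Of the probes, 34885 had 1 annotated gene, 18 with several were left out, 2197 and 1342 were named through the array symbol as current name or alias, and 6839 kept the array symbol. Symbols and promoter windows came from RefSeq tables of GRCm38.p6, used for names and sequence alone, and a gene held a motif if any of its windows did. A probe whose alias fits more than 1 pump gene was not assigned. Same-numbered arrays correlated between -0.20 and 0.35 in their deviations from the group means, over 0.1 in 13 of 36 pairs, so the numbers were not taken to pair the arrays. Alternatives were other scalings, background corrections, filters and probe choices, the other deposited tables, a model of all 24 arrays, array weights, a replicate block, leaving out each array, and leaving out alloy replicates 1, 3 and 4.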

Additional observations from a re-analysis of the deposited data

Results flagged for a closer look

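For 5 of 136 groups of 6 arrays (34 members in 4 groups), 1 array lay far from the other 5, with a gap to its nearest neighbour larger than Dixon's 95% value for the range; about 1 in 20 groups would by chance. Ulk1 on alloy replicate 4 was at 9.94, against 9.29 for the next highest alloy array. As deposited, its alloy intensities ran only from 567 to 654 (controls 639 to 752), so the gap is one of the normalised values. Alloy replicate 4 had the lowest median probe intensity of all arrays (61.6). Map1lc3b on control replicate 1 was at 9.11, next to 8.84. Mcoln1 on control replicate 6 was at 8.09, next to 7.99. Ctsa on manganese replicate 6 was at 8.81, next to 8.65. Lamp1 on control replicate 4 was the lowest control at 12.82, next to 12.91.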

How the results depend on the processing

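Counts of members called kept within 1.5 times of the value given under the alternatives tried for iron (0), manganese against control (28, 24 to 29) and manganese against iron (24, 24 to 26). For the alloy against control, 20 became 13 with median scaling and 10 without normalisation between arrays. The median change of all genes was -0.08 and -0.13 in these settings, and 39.8% and 36.3% of all genes were called. For the alloy against iron, 19 became 12 and 10 in the same settings, where 39.6% and 34.8% of all genes were called. For the alloy against manganese, 2 became 0 with median scaling, 0 without normalisation, 0 with the replicate block, 1 with the authors' normalized probe table, 1 with their normalized gene table, 1 without the filter, 5 in the model of all 24 arrays, 6 with array weights and 8 (3 higher, 5 lower) without alloy replicates 1, 3 and 4, arrays left out for their position along the response; the cause was not tested. In the authors' normalized probe table the 1 member called was neither Atp6v1a nor Map1lc3b. With the replicate block the other counts were 0, 28, 19, 18 and 25, and no other comparison moved by over 1.5 times. Leaving out 1 array gave 18 to 21 (alloy against control), 15 to 20 (alloy against iron), 0 to 3 (alloy against manganese), 0 to 0 (iron), 27 to 29 (manganese against control) and 24 to 25 (manganese against iron). Without those 3 arrays Atp6v0d1 turned from 0.05 to -0.18 with the alloy, and of all genes 49.4% were called with the alloy (3159 higher, 3321 lower), against 12 higher and 8 lower of 34 members. Of all genes, 2.28% were called with iron, but 0.984% with median scaling or without normalisation, 1.45% with an offset of 16, 1.01% without the filter, over more genes, and 0.229% in the model of 24 arrays. Leaving out iron replicate 3, 5 or 6 or control replicate 4 gave 1.2%, 1.33%, 0.954% and 1.05%. For the alloy against manganese, 4.15% of all genes were called, but 0.244% with median scaling, 0.13% without normalisation, 2.63% with the replicate block, 1.7% without the filter, and 15.3% in the model of 24 arrays, 12.2% with array weights and 10.5% without alloy replicates 1, 3 and 4. Leaving out manganese replicate 2, 3, 4, 5 or 6 gave 1.62%, 1.77%, 1.3%, 1.48% and 1.52%, and leaving out alloy replicate 1, 2 or 5 gave 2.22%, 2.31% and 6.55%. With the alloy, 3075 of 6491 called genes were higher, against 1487 of 5218 with median scaling and 1048 of 4756 without normalisation. In the authors' normalized probe table the median change of the members was 0.06 with manganese and 0.10 with the alloy.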
